A study of Mus musculus with 9 samples.

Results

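Cells of the caput epididymis that carried narrow and clear cell markers were examined. They were chosen by measured counts: a barcode from a caput library was selected when at least 3 of the 6 genes Foxi1, Atp6v1g3, Stap1, Clcn5, Smbd1 and Tfcp2l1 had a unique molecular identifier (UMI, 1 counted RNA molecule) and fewer than 2 of Krt5, Krt14, Pecam1, C1qa and Lum had one. Of 13987 caput cells within the quality limits, 4938 were selected, namely 1379 of 4209 at postnatal day 42 (P42), 1375 of 4868 in the first P56 replicate (P56-1) and 2184 of 4910 in the second (P56-2). The whole series held 42087 cells, and the same rule selected 3528 cells of the corpus and 2970 of the cauda. The other 9049 caput cells are called remaining cells below. They include 948 cells with 3 or more rule markers that were left out because of Krt5, Krt14, Pecam1, C1qa and Lum. These numbered 431 at P42, 101 in P56-1 and 416 in P56-2.

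The epididymides came from untreated male mice of the strain C57BL/6 (C57BL/6J in the study's methods) at 42 and 56 days of age and were cut into caput, corpus and cauda. Each library held cells pooled from 5 mice, with 1 pool at P42 and 2 pools at P56, and the 3 segments of a pool came from the same mice. No group carried a transgene, a deletion or a drug. The P42 caput is therefore 1 library, and age, pool and processing batch cannot be told apart.

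Narrow cells line the initial part of the epididymal duct and clear cells line the segments beyond it. Both acidify the lumen, which keeps spermatozoa quiescent, by means of a vacuolar proton ATPase (V-ATPase) whose cytosolic V1 sector splits ATP and whose membrane V0 sector conducts protons, and carbonic anhydrases and bicarbonate transporters supply and remove the acid and base equivalents. Foxi1, a forkhead transcription factor, is needed for the expression of the pump in these cells, and both cell types also take up proteins from the lumen by endocytosis.

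The levels of the rule markers are fixed in part by the selection and are given as a description. The summed level of the 6 rule markers had a median of 37.9 UMIs per 10000 in the selected cells at P42, 23.5 in P56-1 and 25.8 in P56-2, against 2.48, 1.77 and 2.45 in the remaining cells. It spread over a wide range, with 24.7%, 27.1% and 20.9% of the selected cells under 10 per 10000 and 48.9%, 34.04% and 33.5% at 40 or more. The 1285 cells with exactly 3 markers had a median of 7.82 per 10000 and the 2174 cells just outside, with 2 markers, 4.14, while the 1145 cells with all 6 markers had 79.6. The rule markers were also detected in barcodes with markers of other types. Of the caput barcodes with UMIs of C1qa, C1qb and C1qc, genes of macrophages, 33.8%, 31.8% and 61.7% carried 3 or more. Their median depths were 5710, 5941 and 6968 UMIs. These shares were taken before the exclusion genes, C1qa among them, were applied. Over all caput cells, 3 or more were carried by 1379 selected and 431 excluded cells of 4209 at P42. In P56-1 these were 1375 and 101 of 4868, and in P56-2 2184 and 416 of 4910. The excluded cells count among the remaining cells. Their median was 17.3 marker UMIs per 10000, above the 7.82 of selected cells with exactly 3 markers. Every ratio to the remaining cells below is thus taken over these cells too, and their part in it was not tested. Of the 7 narrow and clear cell genes outside the rule with 10 or more UMIs, 4 stood at 2 or more times the remaining cells in every caput library. Of the 8496 genes with 50 UMIs in each library, 164 did. For list genes, here and below, the 10 UMIs are summed over the 3 caput libraries, a looser limit than 50 in each. The cells are called marker-selected here, and values are also given for the 1874 cells with 40 or more marker UMIs per 10000 (675, 468 and 731), a limit set after the data were seen. Between 30 and 50 per 10000, close to that limit, lay 145, 188 and 396 cells, so the limit does not fall in an empty gap. Whether it parts cell types was not tested.

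**Figure D1:**
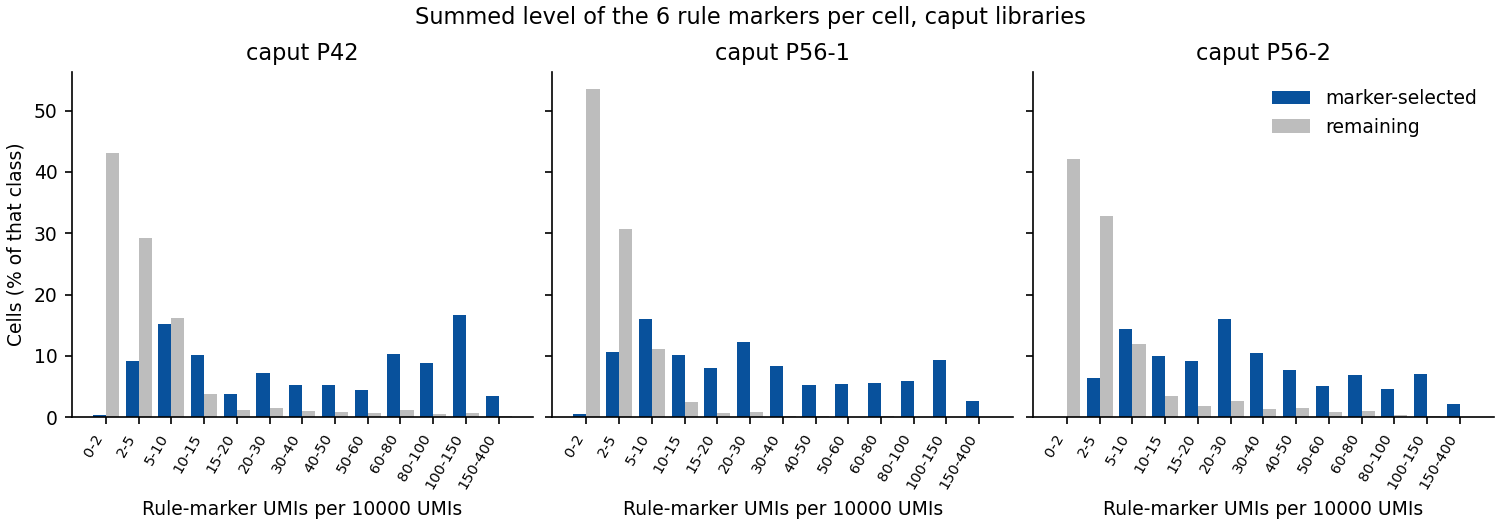
Summed UMIs of the 6 rule markers per 10000 UMIs of a cell (x axis, bins of unequal width) and the share of cells of each class in a bin (y axis, percent) for the 3 caput libraries. Remaining cells (grey) lie mostly under 10 per 10000 while marker-selected cells (blue) reach from under 10 to over 100, with 48.9% at 40 or more in the P42 library and 34.04% and 33.5% in the P56 libraries.

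Libraries held 23114756 to 50655384 UMIs. Marker-selected caput cells had a median of 5655 to 6683 UMIs and 1907 to 2173 genes per cell, close to the remaining caput cells at 5739 to 6222 UMIs. The cauda P42 library stood apart, with 203 selected cells (4.42%) and a summed level of the 4 fibroblast markers outside the rule of 21106 CPM (UMIs per 1000000) in them. Barcode sequences found in more than 1 library numbered 143, and 30 caput marker-selected cells carried one.

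The pump subunits that the rule did not use were higher in marker-selected cells for some isoforms and close to the remaining cells for others. Selection used measured counts of these same cells, so levels over the remaining cells are described without a test. Atp6v1a, the catalytic subunit A, was at 872, 852 and 784 CPM in the marker-selected cells of P42, P56-1 and P56-2, and at 316, 227 and 299.8 CPM in the remaining cells. The classes did not overlap, and the ratio was 2.62 to 3.75. Atp6v1b1, the B subunit isoform of specialised proton-secreting cells, was at 50.3 ± 18.1 CPM (SD, n = 3) and 3.49 to 10.2 times the remaining cells. Its widely expressed counterpart Atp6v1b2 was at 28.4 to 41.2 CPM and 1.11 to 1.29 times. The same contrast held between the C subunits, with Atp6v1c2 at 3.85 to 11.3 times and Atp6v1c1 at 1.08 to 1.17 times. In the V0 sector, Atp6v0a4, the a subunit isoform found in acid-secreting epithelia, stood at 4.95 to 8.49 times and Atp6v0d2 at 2.61 to 3.60 times, whereas Atp6v0a1 and Atp6v0d1 were at 0.869 to 1.07 and 0.95 to 1.06 times.

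Over the lists, 3 of 12 V1 genes and 2 of 12 V0 and accessory genes with 10 or more UMIs stood at 2 or more times the remaining cells in each caput library. Of all 8496 genes with 50 UMIs in the marker-selected cells of each library, 164 did, and the median of the smallest ratio was 0.969. In the cells with 40 or more marker UMIs per 10000 the counts were 5 of 12 and 6 of 12, joined by Atp6v1e1 and Atp6v1h in V1 and by Atp6v0b, Atp6v0c, Atp6v0e and Atp6ap2 in V0, and 480 of the 8496 genes. The isoform pairs also differed in those cells, with Atp6v1b1 at 7.60 to 25.8 times and Atp6v1b2 at 1.12 to 1.45 times.

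**Figure D2:**
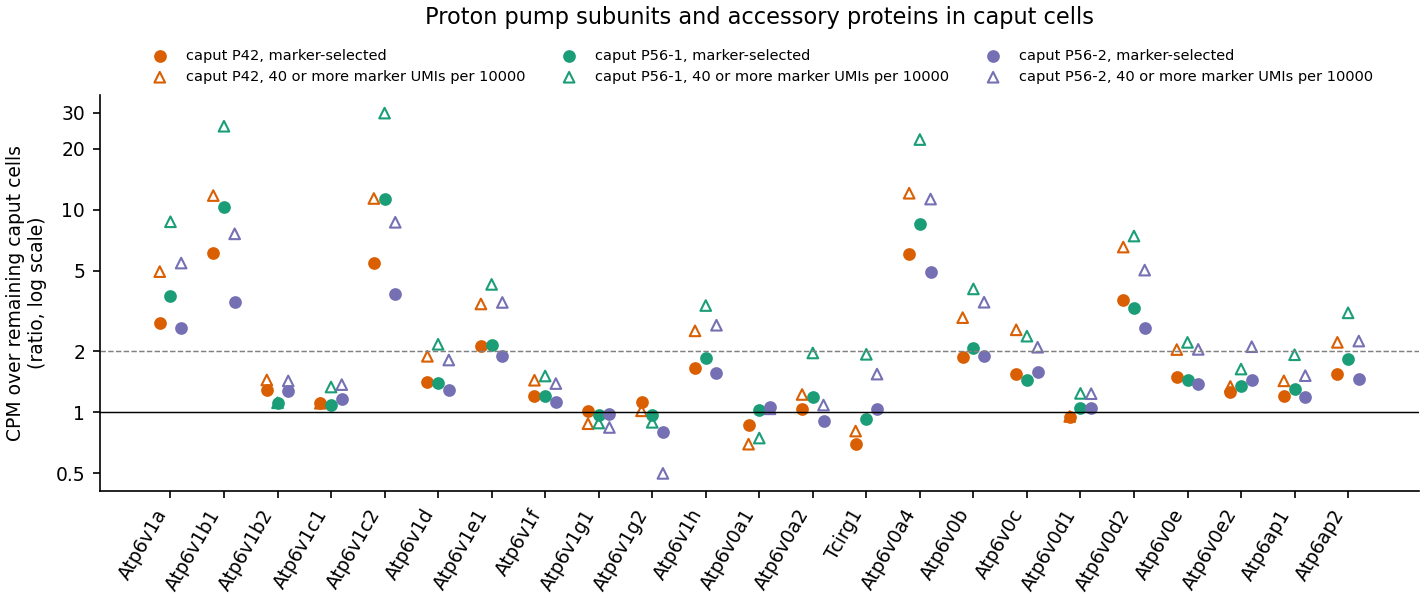
Ratio of CPM in marker-selected cells (filled circles) and in those with 40 or more marker UMIs per 10000 (open triangles) to CPM in the remaining cells of the same caput library (y axis, log scale) for subunits and accessory proteins of the V-ATPase with 100 or more UMIs, rule marker left out. The solid line marks equal levels and the dashed line a ratio of 2, and Atp6v1b1, Atp6v1c2 and Atp6v0a4 stand highest while their counterparts Atp6v1b2, Atp6v1c1 and Atp6v0a1 lie near 1.

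Of the ion transporters beyond the pump, 4 of 31 stood at 2 or more times the remaining cells in every caput library. Over all 8496 genes with 50 UMIs in each caput library, 164 did. Slc26a3, a chloride/bicarbonate exchanger, was at 115, 63.3 and 71.8 CPM against 20.7, 6.74 and 15.2 CPM, a ratio of 4.74 to 9.39. Bsnd (barttin), a small membrane protein of ion-transporting epithelia, was at 6.46 to 12.0 times. Kcnq1, a potassium channel, was at 26.8 ± 11.5 CPM and 3.21 to 6.14 times. The high-marker cells added Slc9a2, a sodium/proton exchanger, Slc9a3r1, a scaffold of such exchangers, and Hvcn1, the voltage-gated proton channel.

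Several genes often tied to acid secretion were low or shared. Slc4a9, a bicarbonate cotransporter of acid-base transporting epithelia, had 9 UMIs over all caput marker-selected cells and Adcy10, the bicarbonate-sensitive adenylyl cyclase, 27. None of the 6 carbonic anhydrases with 10 UMIs reached a ratio of 2, beside 164 of 8496 genes over all that did so in each library. Car2, a cytosolic enzyme that the study lists as a narrow cell marker, was at 180, 149 and 174 CPM against 128, 85.1 and 105 CPM. This ratio of 1.41 to 1.75 rose to 2.01 to 3.31 in the cells with 40 or more marker UMIs per 10000. Car12, a membrane enzyme, was at 0.613 to 1.39 times.

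Among 20 measured signalling genes, Insrr (the insulin receptor-related receptor, a sensor of alkaline pH) was at 3.78 ± 1.41 CPM and 4.54 to 8.13 times the remaining cells, Kit (the receptor of stem cell factor) at 2.76 to 3.84 times, and Bdkrb2 (a bradykinin receptor) at 2.38 to 3.84 times on 16 UMIs. The protein kinase A genes Prkaca and Prkar1a were at 0.964 to 1.19 and 1.05 to 1.17 times. Of 5 transcription factors measured, Dmrt2 was at 44.9 ± 15.2 CPM and 4.26 to 10.5 times, and Foxp1 was at 1.63 to 2.36 times. Of the endocytosis and lysosome genes 0 of 28 stood at 2 or more times in every library, beside 164 of 8496 genes over all. The adaptor Dab2 was highest at 1.96 to 2.55 times. In the high-marker cells 3 of 28 stood there, Dab2 and Hexa among them, beside 480 of 8496.

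Markers of other cells were present in the marker-selected cells. The 20 principal cell markers summed to 87002, 156293 and 146886 CPM in them and to 97881, 191057 and 160481 CPM in the remaining cells, and in the high-marker cells to 49059, 86289 and 87033 CPM. Gpx5, a secreted glutathione peroxidase of caput principal cells, was at 0.854 to 0.913 times the remaining cells, and at 0.468 to 0.534 times in the high-marker cells. The 6 macrophage markers not in the rule summed to 252, 150.1 and 270.3 CPM, beside 455, 158 and 317 CPM in the remaining cells, and in the high-marker cells to 263, 198 and 334 CPM, above the remaining cells at P56. The 4 fibroblast markers not in the rule summed to 1423, 432 and 536 CPM in the marker-selected cells and to 2405, 333 and 453 CPM in the remaining ones, so that they were higher in the selected cells at P56. The 5 erythrocyte genes summed to 14163, 3208 and 5423 CPM beside 16491, 3029 and 6136 CPM. None of the markers of the other cell types was at 0. Whether these UMIs came from free RNA, from barcodes holding more than 1 cell or from the cells themselves was not tested.

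The genes that stood farthest above the remaining cells were led by Iapp, which encodes the peptide hormone amylin, at 75.8, 28.01 and 36.2 CPM against 4.83, 3.01 and 2.93 CPM, a ratio of 9.30 to 15.7. All 3 caput libraries lay above every remaining-cell value. The next were Bsnd, Gng4 (a G protein gamma subunit, 6.00 to 15.1 times), Tmem117, Tgm3 (a transglutaminase, 5.73 to 11.2 times), 2610016A17Rik, Cyp1a1 (a cytochrome P450 that oxidises aromatic hydrocarbons, 5.11 to 9.001 times), Rnase1 (a secreted ribonuclease), Slco1a5 (an organic anion transporter), Tmem61 and Pla2r1 (a phospholipase A2 receptor). Fut9, Atp6v0a4, Cldn9 (a tight junction claudin), Nhs, Klk1b27, Kif1a (a kinesin), Syn2 (a synapsin), Il13ra2 (a receptor of interleukin 13) and Slc26a3 completed the 20, the last at 4.74 to 9.39 times. In the cells with 40 or more marker UMIs per 10000 the smallest ratio of these 20 genes rose to between 9.07 and 21.8. Of the 20 genes, 17 had a promoter window (250 bases before to 50 after a start) in the RefSeq set of build GRCm38.p6, and the forkhead core TGTTTAC, searched on both strands, was in 0 of their 21 windows and in 1199 of all 32851 (3.65%). These letters are thus not in those windows, which says nothing about the factor.

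Clustered among themselves, the marker-selected caput cells fell into 4 groups that differed in marker level. The first held 2176 cells (44.1%) with a median of 67.8 rule-marker UMIs per 10000 and all 6 rule markers at 2 or more times the other selected cells, but its leading genes were Col3a1 and 4 globins, of which Hbb-bt was highest at 13.0 times the other selected cells. It held 61.2% of the selected cells at P42, 41.5% in P56-1 and 34.8% in P56-2, and 4 of 8 further narrow and clear cell genes stood at 2 or more times. So did 5 of 5 fibroblast, 4 of 4 endothelial, 5 of 5 ciliated cell and 4 of 5 erythrocyte genes, and 0 of 20 principal cell markers. The principal cell markers summed to 74258 CPM in this group and to 184753 CPM in the fourth. The share of all genes at that ratio was not computed for any group, so no such count can be called high or low. The second, of 623 cells (12.6%, median 22.3 per 10000), was led by Spint4, Spint5, Wfdc13, Defb23 and Gpr82, and the fourth, of 2102 cells (42.6%, median 14.4 per 10000), had 10 of 20 principal cell markers at 2 or more times the other selected cells. The third held 37 cells led by Cox8c, Tuba3b, Rbakdn, Ldhc and Pabpc6, and 5 of 5 sperm markers were at 2 or more times. None was given a cell type name. These genes defined the groups and were not tested.

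Selected cells made up 32.8% of the cells of the caput at P42 (exact 95% interval 31.3 to 34.2), 28.2% in P56-1 (27.0 to 29.5) and 44.5% in P56-2 (43.1 to 45.9). In the corpus the shares were 23.7%, 25.3% and 27.8%, and in the cauda 4.42%, 28.04% and 28.8%. The caput mean exceeded that of corpus and cauda by 12.1 percentage points. The share is that of cells in which the rule markers were detected, so it is given as a description with no test, and P56-1 in the caput lay between the cauda libraries of P56. With cells thinned to 1000 UMIs the shares in the caput were 18.0%, 10.1% and 18.9%. Cells with fewer UMIs were left out of these shares, 381 of 4590 in the cauda P42 library and at most 51 in any other. Thinning lowered the mean share in each segment, from 35.2% to 15.7% in the caput, from 25.6% to 12.9% in the corpus and from 20.4% to 8.46% in the cauda, and the difference was then 4.99 points. For the cells with 40 or more marker UMIs per 10000 the shares were 16.0%, 9.61% and 14.9% in the caput, and the difference from the other segments was 3.68 points. The intervals cover counting error only. A lower share of cells and a lower recovery of them during dissociation cannot be told apart.

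The mitochondrial share of UMIs was lower in the caput. Marker-selected caput cells had medians of 7.83%, 8.25% and 7.22%, those of the corpus 16.7%, 22.7% and 25.7%, and those of the cauda 13.5%, 20.7% and 16.8%. No caput library overlapped the others, and the difference was -11.6 percentage points (exact permutation within pools, two-sided, p = 0.037, the smallest that 27 arrangements allow). The remaining cells differed in the same direction, by -10.0 points, from 5.62% ± 0.380 in the caput. Within each library the marker-selected cells were above the remaining ones, by 2.15 ± 0.228 points for the caput, 3.83 ± 1.25 for the corpus and 3.60 ± 0.900 for the cauda (SD, n = 3 each). As a ratio of the segment means the order was the opposite, with 7.77% over 5.62% in the caput, 21.7% over 17.9% in the corpus and 17.01% over 13.4% in the cauda.

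To ask which genes set caput cells apart from cells chosen by the same markers further down the duct, UMIs were summed per library and fitted with edgeR's quasi-likelihood test, with a term for each pool. Calls needed an adjusted p (Benjamini-Hochberg, over all genes tested) under 0.05 together with a log2 fold change of 1 or more in size. Of 14761 genes, 1475 (9.99%) were higher and 1109 (7.51%) lower in the caput than in the mean of corpus and cauda. Most of these differences were also present in the remaining cells: 1326 of the 1475 (89.9%) and 1019 of the 1109 (91.9%) pointed the same way in the remaining cells of every pool. The largest were of that kind. Obp2a, an odorant-binding lipocalin, had 3263 UMIs in caput and 5 in other marker-selected cells (log2 fold change 10.47 ± 0.24, edgeR adjusted p = 4.2e-07) and 83.4 to 113 CPM beside 95.9 to 140 CPM in the remaining caput cells. Ltf (lactotransferrin) was the lowest (log2 fold change -9.07 ± 0.51, edgeR adjusted p = 3.4e-06), at 0.212 to 0.934 CPM in the caput, 142 to 392 CPM elsewhere and 139 to 506 CPM in the remaining cells there. Clpsl2, Defb45, Teddm1a, Ly6g5b, Spag11b, Ly6g5c, Mup4, Lcn10 and Cst12 followed Obp2a at 9.65 to 10.16, and Ly6f, Slc7a12, Cpa3, Rab3c, Cyp4a12a, Defb40, B3galt2, Ces1e and Khdc1a followed Ltf at -7.88 to -7.23. Cpa3, a protease of mast cells, had 0 UMIs in the caput and was at least 30.5-fold lower there, against a floor of 3 counts over the group, but it was not called without P56-1 (edgeR adjusted p = 0.0997), without P56-2 (0.0669) or with at least 4 markers per cell (0.0748).

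Of the called genes outside the rule, 40 of 1474 higher in the caput (2.71%) and 37 of 1109 lower there (3.34%) passed a filter. They were also at 2 or more times the remaining cells in every library of the segments where they were higher. Of these, 39 and 37 kept 1 direction in all pools. Over all 8496 genes with 50 UMIs in each caput library, 164 stood at that ratio in the caput. No such share was computed for corpus and cauda. The filter used the segments where a gene was higher, so passing it is no test of the segment difference. Clec2l, a C-type lectin-like gene, was at 21.2, 18.7 and 17.0 CPM in caput marker-selected cells and at 0 to 0.867 CPM in the 6 corpus and cauda libraries. Among the 39 genes it had the largest log2 fold change, 6.20 ± 0.31 (edgeR adjusted p = 1.7e-06), and stood at 6.07 to 7.25 CPM in remaining caput cells. Iapp was at 75.8, 28.01 and 36.2 CPM in the caput, at 3.801, 16.6 and 5.88 CPM in the corpus and at 0.867, 2.01 and 0.932 CPM in the cauda. Every caput library lay above every other library (log2 fold change 3.56 ± 0.48, edgeR adjusted p = 0.00073). Npnt, the integrin ligand nephronectin, was at 83.7, 43.8 and 39.6 CPM against 1.31 to 14.7 CPM (3.45 ± 0.20, edgeR adjusted p = 4.4e-06). Gabra4, a GABA-A receptor subunit, was at 13.8, 9.55 and 9.09 CPM against 0 to 3.71 CPM (3.19 ± 0.32), and Cldn6, an embryonic-type claudin, at 19.6, 7.75 and 9.65 CPM against 0.402 to 4.37 CPM (2.90 ± 0.24). Slc6a2 (the noradrenaline transporter, 4.50 ± 0.48), Ceacam2 (4.36 ± 0.56), Tmem151b (3.91 ± 0.77), Siglec15 (3.71 ± 0.59) and Vtcn1 (3.03 ± 0.54) made up the rest of the 10 largest, with 73 to 130 UMIs in the caput cells, and Tmem151b was called neither without P56-1 nor without P56-2. Siglec15 was at 4.53, 1.91 and 2.18 CPM in the caput and 4.94, 0.968 and 1.57 CPM in the corpus, which overlapped, and at 0 in all cauda libraries.

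In the opposite direction, Napsa, the aspartic protease napsin A, was at 15.8, 17.2 and 16.5 CPM in the caput, 58.3, 117 and 217 CPM in the corpus and 134, 506 and 542 CPM in the cauda. Every corpus and cauda library lay above every caput library (log2 fold change -3.66 ± 0.46, edgeR adjusted p = 0.0005). Hhatl was at 0.934 to 2.23 CPM in the caput, which is at the level of the remaining cells there (0.732 to 1.62 CPM), and at 5.13 to 13.7 CPM in the corpus and 18.3 to 24.3 CPM in the cauda (-3.43 ± 0.40). Ckmt1, the mitochondrial creatine kinase, was at 9.47, 8.06 and 9.59 CPM in the caput, 26.8 to 41.9 CPM in the corpus and 42.5 to 71.1 CPM in the cauda (-2.33 ± 0.18, edgeR adjusted p = 2.6e-05). Vstm2a (-3.67 ± 0.44), Kcnk3 (a background potassium channel, -3.12 ± 0.54), Ndnf (-2.70 ± 0.43), Sv2c (a synaptic vesicle glycoprotein, -2.45 ± 0.35), Gja3 (a connexin, -2.44 ± 0.46), Defb50 (a beta-defensin, -2.12 ± 0.25) and Spp2 (-4.98 ± 0.73, on 1 UMI in the caput and 51 elsewhere) were the others. Kcnk3 was not called without P56-1, nor Gja3 without P56-2.

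**Figure D3:**
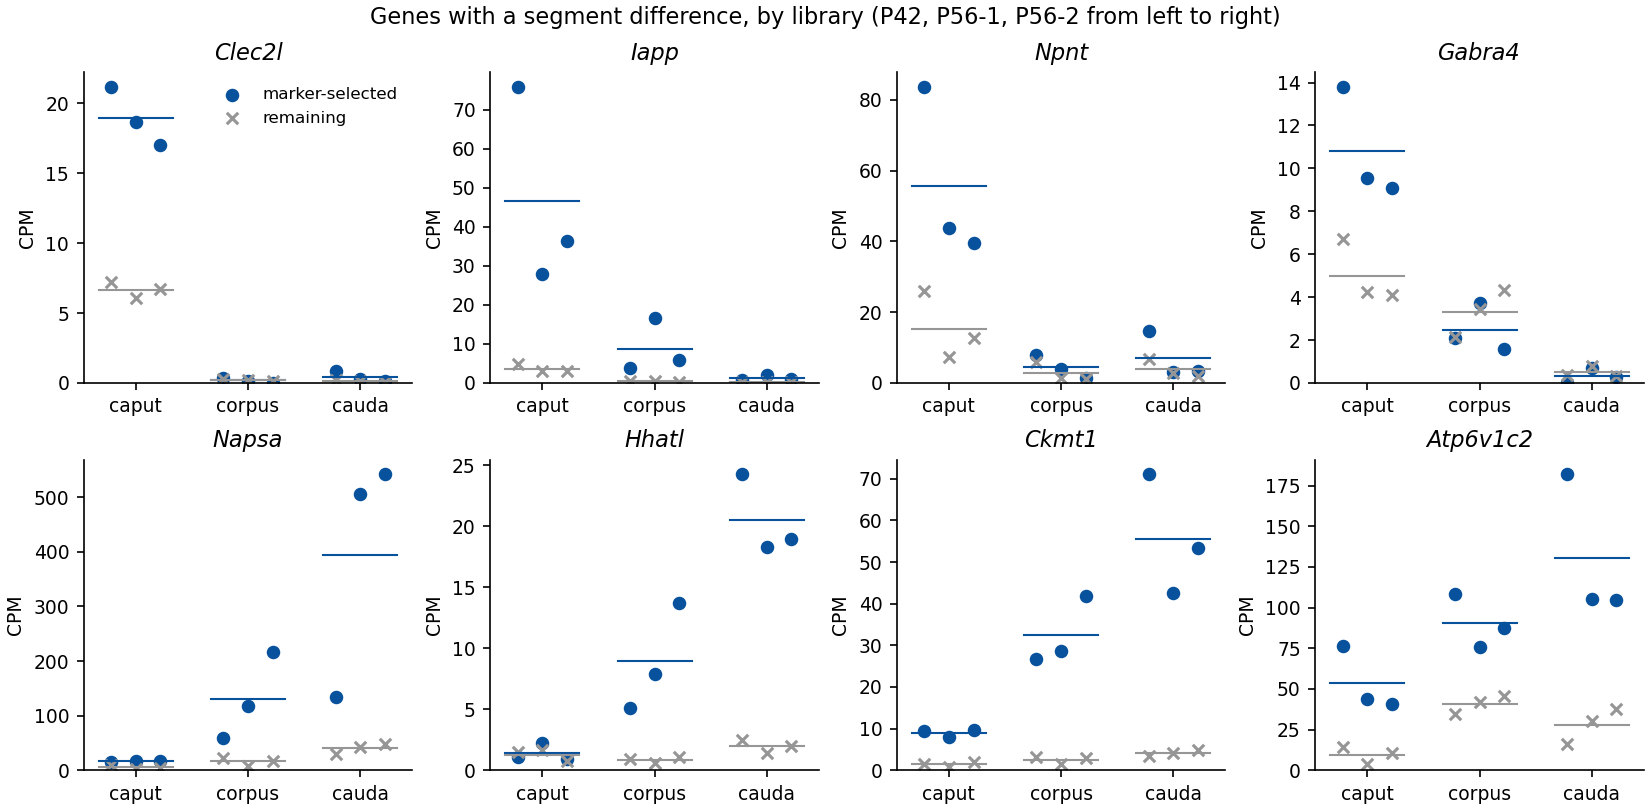
CPM (y axis, linear, from 0) of 8 genes in marker-selected cells (blue circles) and remaining cells (grey crosses) of each segment, with 1 point per library and a line at the mean of 3. Clec2l, Iapp, Npnt and Gabra4 are highest in marker-selected caput cells, and Napsa, Hhatl, Ckmt1 and Atp6v1c2 rise towards the cauda in marker-selected cells.

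The lists of acid-secretion genes are read against the 9.99% of all genes that were higher and the 7.51% that were lower. Of 11 V1 genes tested, 1 was higher (Atp6v1g2, 2.06 on the log2 scale, at 0.803 to 1.12 times the remaining caput cells) and 1 lower, Atp6v1c2, at 76.5, 43.5 and 40.5 CPM in the caput and 76.0 to 182 CPM elsewhere, so that the highest caput value overlapped the lowest of the corpus (-1.16 ± 0.17, edgeR adjusted p = 0.0011). This gene was at -0.83 in the cells with 40 or more marker UMIs per 10000 and at -0.97 without P56-2, under the limit on fold change. None of 12 V0 and accessory genes was called, and the medians of both lists were -0.27 and -0.24 beside 0.01 over all genes. Of 6 carbonic anhydrases, Car7 was higher (4.49, at 0.738 to 0.981 times the remaining caput cells) and Car4 (-3.72) and Car2 lower. Car4 was high in the corpus alone, at 279.9 to 382 CPM beside 2.63, 2.65 and 5.98 CPM in the caput and 1.73, 17.1 and 1.52 CPM in the cauda, and the remaining corpus cells were higher still, at 362 to 547 CPM. Car2 was at 149 to 180 CPM in the caput, 299 to 439 CPM in the corpus and 304 to 353 CPM in the cauda, with no overlap (-1.18 ± 0.20, edgeR adjusted p = 0.0026), and its adjusted p was 0.0811 and 0.0501 without P56-1 or P56-2. In remaining cells Car2 was at 85.1 to 128 CPM in the caput, higher in the corpus at 220 to 319 CPM and lower in the cauda at 28.0 to 69.2 CPM. Of 29 transporters, Cftr (the chloride channel of cystic fibrosis, 7.75), Slc4a4 (a sodium bicarbonate cotransporter, 4.17) and Kcnj15 (1.01, not called under 6 of the alternatives and at 0.72 without P42) were higher and Slc4a5 (-1.94), Slc9a3 (-4.34) and Slc9a3r1 (-2.10) lower. Of these, Cftr at 0.631 to 0.964 and Slc4a4 at 0.813 to 1.01 times were no higher in marker-selected than in remaining caput cells, while Slc26a3 and Bsnd, which were, lay at -0.45 and -0.13 and were not called. Slc9a3 and Slc4a5 were higher in remaining than in marker-selected cells of every corpus library. Slc9a3r1 was lower in the caput in remaining cells too, at 13.0 to 23.1 CPM there beside 70.0 to 183 CPM elsewhere. Among 16 signalling genes Insrr was higher (1.29) and Prkar2b (-3.35), Rapgef3 (-1.17) and Scin, an actin-severing protein (-1.87), lower, but Insrr, Rapgef3 and Scin were not called without P56-1 or without P56-2. Insrr in the P42 corpus, at 7.22 CPM, lay above every caput library. Prkar2b was higher in remaining than in marker-selected cells of every corpus library, and Scin was at 0.441 to 0.641 times the remaining caput cells. None of 5 transcription factors was called. Of 28 endocytosis and lysosome genes, Cd63 was higher (1.72) and 3 were lower, among them Lrp2, the receptor megalin (-4.17), and Lamp1 (-1.02). Lamp1 was not called under 6 of the alternatives, among them no replicate block (-0.96), without P42 (-0.71) and without the cauda P42 library (-0.94). Lrp2 was at 0.852 to 1.01 times the remaining caput cells.

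Lists of other cells moved between segments as well. Of the principal cell markers, 15 of 20 were higher and 4 lower in the caput (median 6.86). Spint4, counted as higher, was at 107, 328 and 764 CPM in the caput but at 1815, 4584 and 1994 CPM in the corpus, and it lost the call under 6 of the alternatives. Adam7 and Aqp9 lost theirs with no replicate block and without P56-1, and Aqp9 also without P56-2 (-0.95, under the limit on fold change). The fibroblast markers Col1a1, Col1a2, Col3a1 and Dcn were lower, 4 of 4 (median -1.79). With no replicate block none of the 4 was called (edgeR adjusted p = 0.121 to 0.217), without P56-1 Col3a1 alone was, and Dcn was under the limit on fold change without P42 (-0.79) and without the cauda P42 library (-0.97). Of 3 endothelial genes, Eng and Kdr were higher, and Eng was not called with no replicate block or without P56-2. All 4 ciliated cell markers tested and 2 of 5 sperm markers were higher, although Sntn was not called by DESeq2 and Tnp1 was called neither without P56-1 nor without P56-2. None of 4 basal, 6 macrophage, 5 T cell or 5 erythrocyte markers was called. Their part in the other gene groups was not tested. Of the 8 mitochondrial protein-coding genes tested, 6 were lower (mt-Co1, mt-Nd2, mt-Nd3, mt-Nd4, mt-Nd5 and mt-Nd6, median of the list -1.17), and of 18 genes that tissue dissociation induces, 6 were lower (Fosb, Egr1, Zfp36, Hspa1b, Dnajb1 and Nr4a1). All 6 of the latter lost the call without P56-1 (edgeR adjusted p = 0.179 to 0.318), without P56-2 (0.109 to 0.283) and in the cells with 40 or more marker UMIs per 10000, and 5 lost it with no replicate block. Of the mitochondrial genes, mt-Nd3 alone was called both without P56-1 and without P56-2. Of the 20 genes that led over the remaining caput cells, 2 were higher (Iapp and Cyp1a1) and 3 lower (Rnase1, Klk1b27 and Syn2). Their median was -0.35, and as they were picked by their caput counts these values are a description. Cyp1a1 was at 44.7, 23.9 and 24.6 CPM in the caput, 17.9 to 35.2 CPM in the corpus and 2.71 to 6.94 CPM in the cauda, and Rnase1 at 19.8 to 24.4 CPM in the caput and 19.8 to 162 CPM elsewhere. The difference of Cyp1a1 thus came with corpus values that overlapped those of the caput. Klk1b27 was likewise at 5.30 to 9.47 CPM in the caput and 3.06 to 7.06 CPM in the corpus, and its lower call came with the cauda at 52.0 to 122 CPM.

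A further fit asked whether the segment difference was unlike that of the remaining cells. Sums of both classes of each library went into 1 edgeR fit with the library as a block. The rule itself made the classes, and they were not equally far apart in each segment. Pooled over cells, rule-marker UMIs per 10000 were 44.3, 33.1 and 33.7 in selected and 6.39, 2.67 and 6.36 in remaining caput cells. They were 53.0, 47.1 and 47.4 against 4.80, 2.19 and 2.83 in the corpus. In the cauda they were 53.8, 36.7 and 32.0 against 2.83, 2.70 and 3.53. Of 17907 genes, 32 (0.179%) had a larger caput-minus-others difference in marker-selected cells and 69 (0.385%) a smaller one. This count rested on both P56 pools, with 1 gene called without P56-1, 9 without P56-2 and 287 without P42, whereas 513 were called when the cells with 40 or more marker UMIs per 10000 took the place of all selected cells. The median over all genes was 0.11 on the log2 scale, and 0.03 with mitochondrial genes left out. It was -0.83 for the narrow and clear cell genes outside the rule and -0.53 for the 20 leading genes. Those 20 were picked by their ratio in the caput, which is 1 side of this difference, so their median is a description. Of them, 2 were called with a larger difference in marker-selected cells, Nhs (1.42) and Klk1b27 (2.18), and 0 with a smaller one. The part of the marker selection in these differences was not tested. Cldn10, a claudin that forms ion pores, was at 194, 186 and 202 CPM in marker-selected and 178, 212 and 196 CPM in remaining caput cells. In corpus and cauda it was at 41.6 to 91.9 CPM in marker-selected and 3.38 to 12.7 CPM in remaining cells. The classes overlapped in the caput and not in the other segments (interaction -2.96 ± 0.19, edgeR adjusted p = 2e-05), and it was called under each of the alternatives, at -4.33 to -2.69. Atp6v0d2 was the pump gene called: it was at 215 to 257 CPM in marker-selected caput cells and 183 to 383 CPM in those of corpus and cauda, but at 66.8 to 82.3 and 10.1 to 33.8 CPM in the remaining cells (-1.83 ± 0.19, edgeR adjusted p = 0.00075, and 0.11 and 0.0544 without P56-1 or P56-2). Ascl4, a basic helix-loop-helix factor, followed the pattern of Cldn10, at 32.6 to 39.0 CPM in marker-selected caput cells, 3.27 to 17.3 CPM in those of the other segments and 0.348 to 1.37 CPM in the remaining cells there (-3.09 ± 0.26). Lef1, a transcription factor of Wnt signalling, was at 25.1 CPM or more in marker-selected caput cells, 11.2 to 72.8 CPM in those of corpus and cauda and 1.43 to 7.97 CPM in the remaining cells there (-2.10 ± 0.19). Without P56-1 the adjusted p of Ascl4 and Lef1 was 0.0731. Car12 was also called (-1.29 ± 0.27), at 8.55 to 42.5 CPM in marker-selected and 5.36 to 8.95 CPM in remaining cells of corpus and cauda. Hhatl (-3.13), Slc35f3 (-2.85), Upk3a (-2.54), Cd164l2 (-2.27), Ripply3 (-2.27), Sec14l4 (-2.22) and Bbox1 (-2.18) were the others of the 10 largest in this direction. These 7 and Car12 were called neither without P56-1 nor without P56-2.

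In 32 genes the difference was larger in marker-selected cells. Klk1b27, a kallikrein-related peptidase, was at 9.47, 5.30 and 6.41 CPM in marker-selected caput cells against 1.97, 0.584 and 1.31 CPM in remaining ones. In the corpus it was at 6.08, 3.06 and 7.06 CPM in marker-selected and 3.72, 1.44 and 2.80 CPM in remaining cells, also higher in the selected cells of each pool, and in the cauda both classes were high, at 52.0 to 122 and 45.7 to 153 CPM (interaction 2.18 ± 0.20, edgeR adjusted p = 0.00023, and 0.0731 without P56-1). Wnt10a, a Wnt ligand, was at 18.4, 9.65 and 8.28 CPM in marker-selected and 8.14, 2.83 and 6.06 CPM in remaining caput cells, and at 0 to 1.90 CPM in the selected cells of the other segments (1.98 ± 0.35). Kcnj8, a subunit of ATP-sensitive potassium channels, was at 3.40 to 9.69 against 0.674 to 4.34 CPM in the caput (1.63 ± 0.32), and Slc40a1, the iron exporter ferroportin, at 2.97 to 7.68 against 0.719 to 2.22 CPM (1.83 ± 0.32). Rtl4 (2.68), Col27a1 (1.93), Fgfbp1 (1.91), Frem2 (1.80), Klk1b24 (1.74) and Il23a (1.73) completed the 10, of which Klk1b27 alone was called without P56-2 and none without P56-1. Over the lists, 0 of 12 V1 genes and 1 of 12 V0 and accessory genes were called, and Slc4a4 was the transporter called (1.01 ± 0.21), a call lost under 9 of the alternatives, at 0.75 to 2.14.

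**Figure D4:**
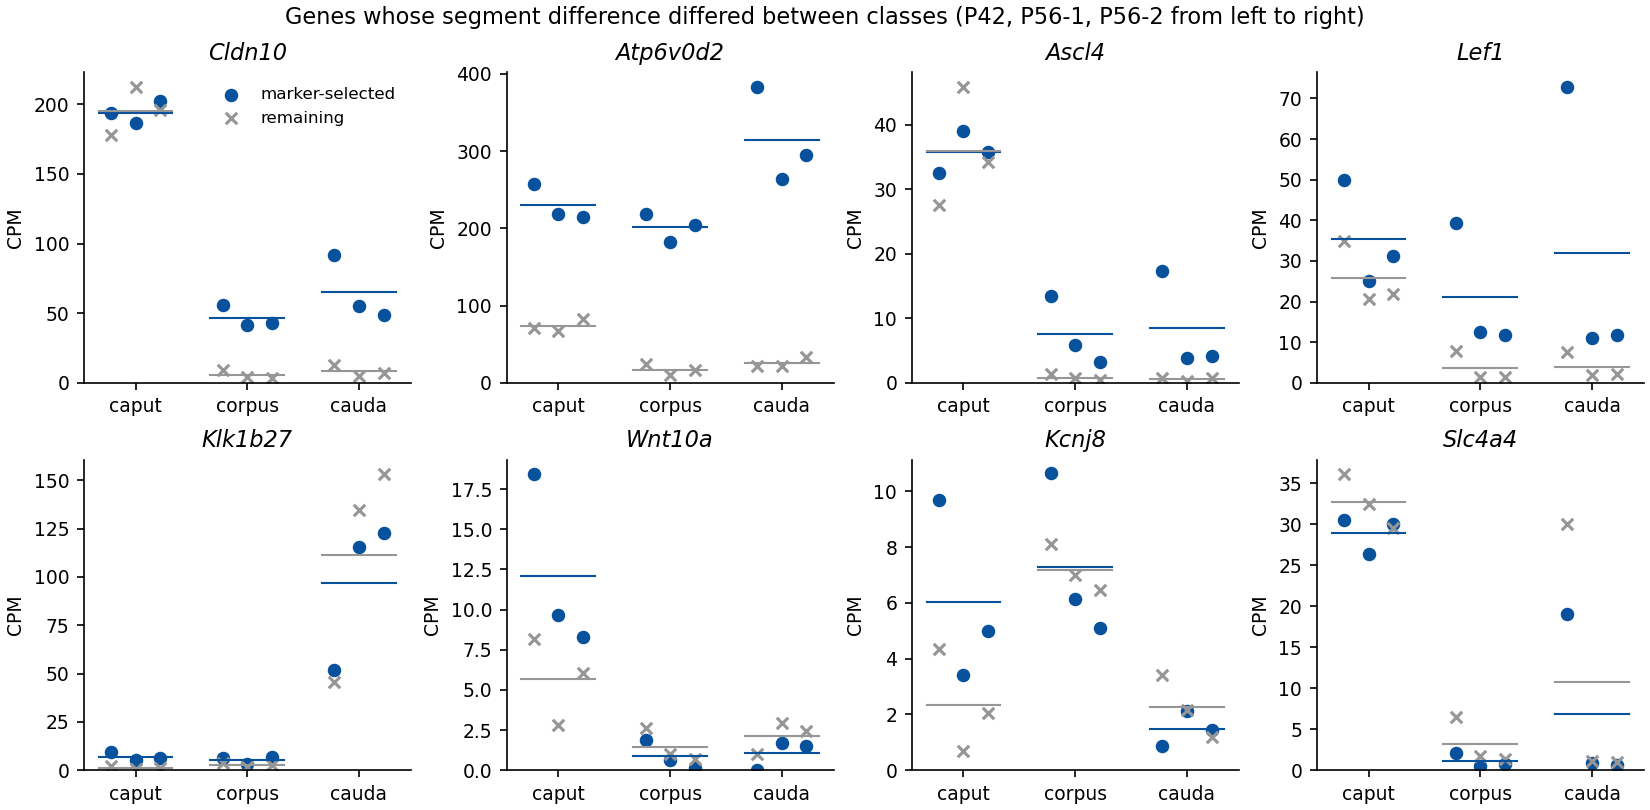
CPM (y axis, linear, from 0) of 8 genes called for a different segment difference between the classes, in marker-selected cells (blue circles) and remaining cells (grey crosses), 1 point per library and a line at the mean of 3. Cldn10, Atp6v0d2, Ascl4 and Lef1 are higher in marker-selected than in remaining cells of every corpus and cauda library, and Wnt10a and Kcnj8 are higher in marker-selected than in remaining cells of every caput library.

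Age was compared in the caput with P56 set against the 1 P42 library, in a fit over all 9 libraries. The fit had a mean for each segment and age, so each P42 library was alone in its group. The spread therefore came from P56-1 against P56-2 in the 3 segments, which are the same 2 pools of mice. The p-values of this fit do not measure the spread of P42 pools. Of 17052 genes, 164 (0.962%) were higher and 178 (1.04%) lower at P56, and DESeq2 on the same sums called 196 and 110. Without P56-1 the calls were 583 higher and 221 lower. The remaining caput cells pointed the same way in both P56 libraries for 161 of the 164 and 177 of the 178. No V1, V0, carbonic anhydrase, transporter or transcription factor gene was called among 12, 12, 8, 31 and 5 tested (edgeR). Among 18 signalling genes Kit and Gucy1a1 were lower, the latter not by DESeq2 (adjusted p = 0.274), nor with at least 4 markers per cell, nor in the high-marker cells (-0.98). Kit was at 37.9, 13.6 and 13.6 CPM in the caput, 45.6, 14.8 and 14.5 CPM in the corpus and 62.4, 12.8 and 13.7 CPM in the cauda, highest at P42 in each segment (log2 fold change in the caput -1.16 ± 0.16, edgeR adjusted p = 0.0099). Lamp1, a lysosomal membrane protein, was the endocytosis gene called, at 70.0 CPM at P42 and 122 and 126 CPM at P56 (1.14 ± 0.17, edgeR adjusted p = 0.013), but at 0.99 in the high-marker cells, under the limit on fold change. Syn2 was the only gene of the 20 that led over the remaining cells to be called, at 29.2, 53.2 and 86.7 CPM (1.57 ± 0.33, edgeR adjusted p = 0.043).

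The genes induced by tissue dissociation were lower at P56 as a group: 14 of 18 were called, with a median of -1.84 beside -0.004 over all genes, and the same 14 were lower in both P56 libraries in the remaining cells. Hspa1a, a heat-shock chaperone, was at 396, 47.7 and 52.9 CPM (-2.66 ± 0.23, edgeR adjusted p = 0.0032) and Dusp1, a phosphatase of MAP kinases, at 662, 115 and 89.8 CPM (-2.37 ± 0.21, edgeR adjusted p = 0.0032). Egr1, an immediate-early transcription factor, was at 724, 135 and 107 CPM and Fos at 2806, 642 and 415 CPM. Ier3, Jund, Hspa8 and Hsph1 were not called. Btg2 and Hspa1b lost the call without P56-2, and Btg2 and Fosb with only the caput libraries in the fit. The same libraries differed in other ways, since the 4 fibroblast markers not in the rule summed to 1423 CPM at P42 and 432 and 536 CPM at P56, and the erythrocyte genes to 14163, 3208 and 5423 CPM. The part of these cells and of handling in the age differences was not tested.

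**Figure D5:**
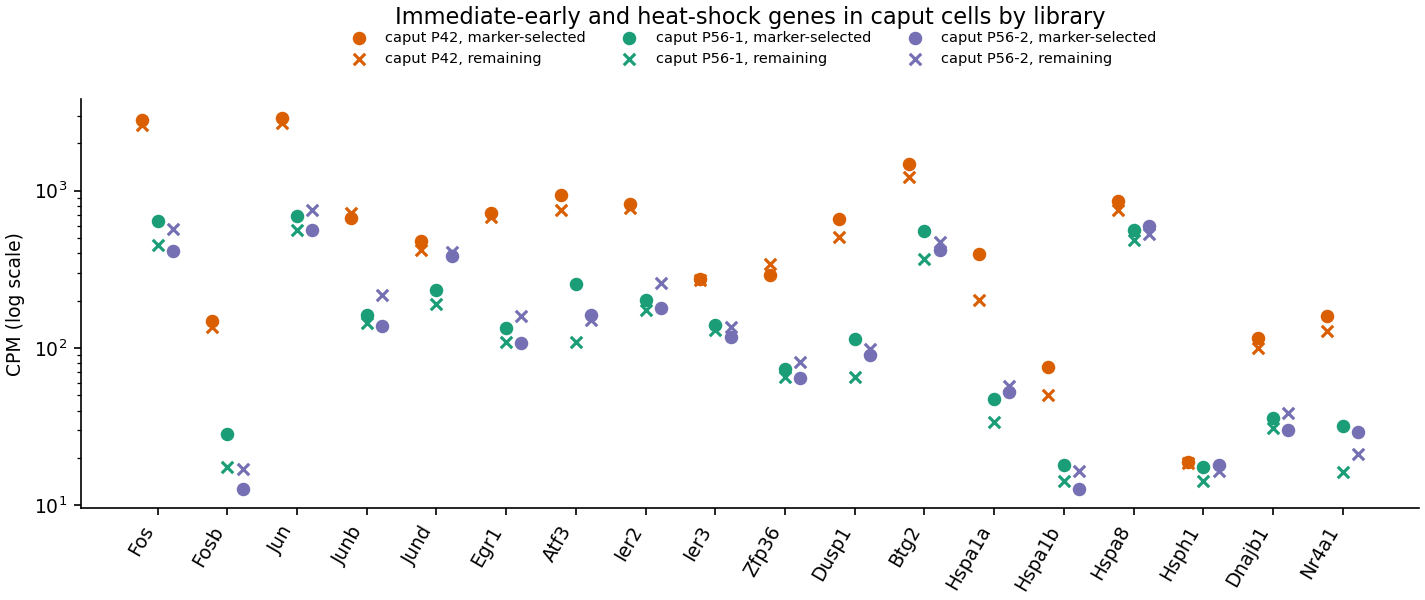
CPM (y axis, log scale) of 18 immediate-early and heat-shock genes in marker-selected cells (circles) and remaining cells (crosses) of the 3 caput libraries. The P42 library (orange) lies above both P56 libraries (green and purple) in both classes for the 14 called genes, such as Hspa1a at 396 against 47.7 and 52.9 CPM in marker-selected cells.

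The sperm markers Prm1, Prm2, Tnp1 and Tnp2 were among the 10 largest fitted rises at P56, and 5 of 5 sperm markers were called. None of the 5 was called with only the caput libraries in the fit (edgeR adjusted p = 0.071 to 0.106), and Tnp2, Prm1 and Ldhc were not called with at least 4 markers per cell. The cluster of 37 selected cells with 5 of 5 sperm markers held 1 cell at P42, 7 in P56-1 and 29 in P56-2, and its part in these rises was not tested. The log2 fold change of Prm1 ranged from 2.81 to 5.32 over the alternatives. Prm1 (protamine 1) was at 8.95, 47.7 and 299 CPM in marker-selected and 56.2, 63.7 and 322 CPM in remaining caput cells (4.56 ± 0.94, edgeR adjusted p = 0.041). The second P56 library was highest in both classes. Tnp2 (6.35), Prm2 (5.48), Tuba3b (5.00), Tnp1 (4.72), Cmtm2b (3.98), Taf7l2 (3.95), Cetn1 (3.89), Spata16 (3.84) and Clec2m (3.83) were the other 9 largest. Of these 10 genes, Prm2 and Tnp1 alone were called with at least 4 markers per cell, Cmtm2b, Taf7l2 and Clec2m also lost the call in the caput-only fit, and Cmtm2b and Taf7l2 without P56-2. In the high-marker cells Tuba3b, Cmtm2b, Cetn1, Spata16 and Clec2m were not called, nor was the sperm marker Ldhc. The largest falls were in Ecel1 (-6.03, at 10.6, 0.106 and 0.124 CPM), Aldh1l1, a folate enzyme, at 23.5, 0.424 and 0.747 CPM (-4.91 ± 0.43, edgeR adjusted p = 0.0032), Dtx3l (-3.86), Slpi (-3.75), Stmn2 (-3.50), Apold1 (-2.88), Eln (-2.74), Wfdc18 (-2.66), Hspa1a and Col3a1 (-2.64). Dtx3l, Slpi, Stmn2 and Apold1 were not called in the high-marker cells, nor Wfdc18 in the caput-only fit. Whether these age differences were unlike those of corpus and cauda was tested in the same fit, where 464 genes (2.72%) were called. With pool as a replicate block 887 were called, the 464 among them, but with the cauda P42 library left out, and the caput set against the corpus, edgeR called 0 of 16705 (1605 had an unadjusted p under 0.05). The log2 differences of named genes stayed of similar size there in most cases, such as -3.07 for Fosb beside -2.94.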

How the data were processed

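The deposited UMI counts per gene and cell, 1 library per segment and pool, were made by the authors with barcode and UMI assignment by UMI-tools, alignment by STAR 2.7.3a and gene assignment by featureCounts on GRCm38.p6 (submitters' processing notes). Cells with 300.0 to 4000.0 detected genes, at most 20000.0 UMIs and under 50.0% mitochondrial UMIs were kept, and R 4.3.3 was used with Python 3.11.15 (matplotlib 3.10.9, pandas 2.3.3, scipy 1.17.1, numpy 2.4.6). UMIs were summed per library and cell class (at least 10 cells), and CPM are UMIs per 1000000 of such a sum. Sums were tested with edgeR 4.0.16 (filterByExpr, TMM, quasi-likelihood test, Benjamini-Hochberg adjustment) and, as an alternative, DESeq2 1.42.0. The scripts were tested on simulated data. The cell rule, gene lists and tests were chosen with earlier results of these data known. Named genes were the listed ones and the 10 largest changes per direction, overall and, for segments, among genes at 2 or more times the remaining cells. The 20 leading genes had the largest smallest ratio over the 3 caput libraries. Clusters are Ward clusters cut at 4. No doublet caller was run, and an alternative left out the tenth of selected cells with the most UMIs.

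Pool was a block in the segment fit and the permutations, since its 3 segments share mice, and library was the block in the fit of both classes. The age fit had no block, as pools are nested in age, and the test of age effects between segments was also run with pool as a block. Deviations from segment means correlated at 0.249 to 0.713 for the 9 library pairs of the same pool and at -0.664 to 0.549 for the 18 pairs that shared neither pool nor segment (8557 genes). Replicates are pools of mice. Alternatives varied the test, scaling, count filter, marker rule, depth, mitochondrial genes, block and each replicate. The limit of 40 marker UMIs per 10000, the fits without the cauda P42 library and the alternatives for age effects between segments were chosen after seeing the data. The test of the mitochondrial excess of marker-selected over remaining cells was not planned either. A permutation test of the share of selected cells was planned but is not used, since the rule used the same counts. Some measured genes are not reported here.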

Additional observations from a re-analysis of the deposited data

Results flagged for a closer look

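The cauda P42 library lay far below the other corpus and cauda libraries in its share of marker-selected cells (4.42%) and of cells with 40 or more marker UMIs per 10000 (2.22%). The gaps to the next library were 0.792 and 0.685 of the range over these libraries, which mix corpus with cauda and P42 with P56. No chance level is given for them, and the library also held the highest summed fibroblast markers.

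The age difference in caput marker-selected cells was unlike that in corpus and cauda for 16 named genes, by the edgeR test of the difference itself. Prm2 rose more in the caput (6.86 on the log2 scale, edgeR adjusted p = 0.0368), while Apold1 (-6.69) and Aldh1l1 (-3.29) were lower. The other 13 were genes induced by dissociation, with differences of -2.43 for Hspa1a, -1.82 for Fos, -2.94 for Fosb, -1.42 for Jun, -1.19 for Junb, -1.68 for Egr1, -3.40 for Atf3, -1.48 for Ier2, -1.46 for Zfp36, -2.02 for Btg2, -2.23 for Hspa1b, -2.11 for Dnajb1 and -1.70 for Nr4a1. All 16 were also called with pool as a replicate block, and none was called without the cauda P42 library, where the caput was set against the corpus and the smallest edgeR adjusted p over all genes was 0.0631. The 13 dissociation genes were at -3.08 to -1.35 there, Aldh1l1 at -3.23, Prm2 at 6.03 and Apold1 at -2.43. In the high-marker cells 9 of the 16 were not called, with at least 4 markers Prm2, Aldh1l1, Apold1, Jun and Junb were not, and Jun, Junb and Hspa1b were not with median-ratio factors, with mitochondrial genes left out or without P56-2. Each rests on the single P42 pool.

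The excess of mitochondrial UMIs of marker-selected over remaining cells was smaller in the caput than in corpus and cauda by 1.56 points, a difference of -1.56 (exact permutation within pools, p = 0.037, the smallest possible). This test was not planned. As a ratio of the segment means the excess was larger in the caput, at 7.77% over 5.62% beside 21.7% over 17.9% and 17.01% over 13.4%. The segment difference itself was unlike that of the remaining cells for 101 genes, and the part of the marker selection in this was not tested.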

How the results depend on the processing

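For the segment difference, leaving out 1 pool gave 1397 (P56-1) to 3344 (P42) called genes beside 2584, and the cells with 40 or more marker UMIs per 10000 gave 1146, of which 1029 were shared. With no filter on low counts it was 3645 and moved the median of all genes to 0.14. For age, beside 342, no filter gave 1259, leaving out 1 P56 caput library 336 (P56-2) to 804 (P56-1) and the high-marker cells 185. For the age difference between segments, beside 464, no filter gave 1152, at least 4 markers 238, leaving out 1 P56 caput library 256 (P56-2) to 591 (P56-1), the high-marker cells 85, the replicate block 887 and leaving out the cauda P42 library 0 (edgeR, with 1605 at an unadjusted p under 0.05). For the difference between classes, beside 101, no filter gave 240, at least 4 markers 178, leaving out the tenth with most UMIs 184, the replicate block with pool-by-class terms 152, leaving out 1 pool 1 to 287, the high-marker cells 513 and leaving out the cauda P42 library 193. Without the replicate block, the segment count was 2207. The difference in the share of selected cells, 12.1 points, was 10.4 points with at least 4 markers, 14.2 with at least 2, 16.2 without exclusion by other markers, 4.99 in thinned cells, 3.68 in the high-marker cells and 8.87 to 17.4 without 1 pool. The mitochondrial difference was -13.7 to -10.4 points without 1 pool. There 0.111 is the smallest p possible, so those values could not pass. The marker-richest cluster held 86.6% of cells at 3 clusters and 41.0% at 6. Genes at 2 or more times the remaining cells were 164, and 480 in the high-marker cells. Of 2063 recomputed values for 183 named gene results, 1818 kept direction and call, 245 kept direction only and 0 reversed. The causes were not tested. Depth limits genes with few UMIs, and the single P42 pool limits the age comparison.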
